A study of Carassius auratus with 9 samples.

Results

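Goldfish carry 5 annotated copies of the gene for subunit 4 of the actin-related protein 2/3 (Arp2/3) complex, among 74297 gene rows measured by RNA sequencing of skin. The copies were taken as every gene whose product name, once the transcript variant suffix and "-like" are removed, reads actin-related protein 2/3 complex subunit 4. LOC113111009 drew attention to the family because of its difference between brown and white skin, so its values are given as a description with no test, and the other 4 copies carry the tests. The libraries came from back skin of the celestial goldfish, a breed of Carassius auratus, at 4 months of age. Brown, white and yellow fish gave 3 libraries each, which the labels call biological replicates, and no genotype, treatment or pooling of fish is stated. The values are FPKM, which scale fragment numbers by gene length and library, so that levels of different genes can be set side by side.

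The Arp2/3 complex binds to the side of an existing actin filament and starts a new filament there as a branch. Branched actin pushes the cell edge forward and drives endocytosis, and pigment cells and keratinocytes both use it when they move or change shape. Within the complex, ARPC4 and ARPC2 form the structural core that rests on the mother filament, ARP2 and ARP3 begin the new branch, and ARPC1, ARPC3 and ARPC5 complete the assembly. The goldfish lineage went through an additional whole-genome duplication, so many of its genes exist as copies on paired chromosomes.

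Counted reads numbered 13772601 to 17359648 per library, of which 1053 to 3664 fell on the 5 copies. Libraries of 1 color differed widely in muscle transcripts. Genes of a skeletal muscle list took 2.02% to 16.1% of reads in brown, 1.72% to 27.2% in white and 0.177% to 21.6% in yellow libraries, and the library numbered 3 was the highest of each color. Of that list, 90 of 131 genes passed the filter on low values and 6 had no read in any library. Keratinocyte genes, which mark the labelled tissue, summed to 4893 to 22809 FPKM and were present in every library. Of these, 52 of 96 genes passed the filter and 9 had no read. They took 2.08% to 3.53% of reads in brown, 0.929% to 5.55% in white and 0.936% to 4.44% in yellow libraries. The lowest values were those of white 3 and yellow 3, where the muscle list took 27.2% and 21.6%. Leukocyte genes, whose cells are rich in Arp2/3, summed to 475 to 536 FPKM in brown, 298 to 599 in white and 393 to 692 in yellow libraries, with 18 of 70 passing and 7 without a read. The part of these mixtures in the values of the copies was not tested. In bulk skin, fewer cells of a type and less RNA per cell cannot be told apart.

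The copies lie at 4 places in the genome, with coordinates from the files and chromosome numbers from the RefSeq table of assembly ASM336829v1. LOC113055178 lies on chromosome 36 (9589638 to 9592417, plus strand), LOC113050403 on chromosome 31 (7884878 to 7889074, minus strand) and LOC113095027 on chromosome 6 (9444498 to 9448419, minus strand). LOC113111004 (10448419 to 10451517) and LOC113111009 (10754558 to 10757665; RefSeq symbol arpc4l) both lie on the plus strand of chromosome 11, 303 kb apart with 5 annotated genes between them. The files give the 5 copies similar lengths of 1151 to 1463 bases. The sources used here do not say how reads shared by near-identical copies were assigned, so a split between copies is less certain than their sum.

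The genes around the copies fall into 2 kinds of neighborhood. Among the 10 genes on each side, the chromosome 6 and chromosome 31 copies shared 8 product names, among them GATA-binding factor 2 and a fast skeletal myosin heavy chain. The chromosome 36 copy shared 5 names with LOC113111004, which were transcriptional adapter 3, rab7, the potassium channel subunit KCNMB2, the mitochondrial S-adenosylmethionine carrier and LRIG1. It shared the first 4 of these with LOC113111009, whose window overlaps that of LOC113111004. No name was shared between the chromosome 6 or 31 windows and the chromosome 11 or 36 windows.

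LOC113055178 on chromosome 36 was the most abundant copy by FPKM. It had 28.1, 14.8 and 40.2 FPKM in the brown libraries 1, 2 and 3, against 44.9, 27.5 and 27.3 in the white libraries and 43.4, 35.3 and 16.1 in the yellow libraries. It ranked first of the 5 copies in 8 of 9 libraries, and in yellow 3 it was second to LOC113111004. This rank rests on the division by length, since its 1151 bases are the shortest of the 5. In reads it was also below LOC113050403 in brown 2 (263 against 332) and yellow 3 (213 against 225). It was below LOC113111004 in reads in white 2 (569 against 630), white 3 (353 against 386) and yellow 1 (1006 against 1150). The 3 colors overlapped, with means of 27.7 ± 12.7, 33.2 ± 10.1 and 31.6 ± 14.0 FPKM in brown, white and yellow (SD, n = 3 each).

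LOC113050403 on chromosome 31 had 20.9, 14.7 and 24.2 FPKM in brown skin, 24.6, 16.3 and 11.1 in white skin, and 31.8, 26.4 and 13.4 in yellow skin, each in order of replicate number. LOC113095027, its counterpart on chromosome 6 by neighborhood, had 14.0, 7.94 and 16.3 FPKM in brown skin, 16.6, 11.6 and 9.59 in white skin, and 19.6, 15.2 and 12.1 in yellow skin. For both copies the colors overlapped. The chromosome 31 copy was the higher of these 2 in every library, by 1.11 to 1.85 times.

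LOC113111004, the first of the chromosome 11 copies, had 12.4, 7.39 and 19.6 FPKM in brown skin, 30.7, 25.6 and 25.0 in white skin, and 41.6, 27.0 and 26.5 in yellow skin. All 3 brown values lay below all 6 others. The means were 13.1 ± 6.16, 27.1 ± 3.14 and 31.7 ± 8.57 FPKM in brown, white and yellow (SD, n = 3). Of 27420 genes tested, 0.671% were lower in brown without overlap. With reads pooled by color, the level of LOC113111004 was 2.22 times as high in white as in brown, and 1.86 to 2.68 times with any 1 library left out. It was 2.60 times as high in yellow as in brown, and 2.15 to 3.14 times with any 1 library left out.

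LOC113111009, the second of the chromosome 11 copies, had 10.8, 5.87 and 15.8 FPKM in brown 1, 2 and 3. In white 1, 2 and 3 it had 0.624, 0.0408 and 0 FPKM, and in yellow 1, 2 and 3 it had 0.109, 0.169 and 0.0637. These levels rest on 325, 124 and 246 reads in brown skin, 19, 1 and 0 in white skin, and 3, 5 and 1 in yellow skin. The brown libraries were the high ones and did not overlap the others, which is the pattern that chose the gene. In pooled reads its level in brown was 83.9 times that in yellow (95% counting interval 43.9 to 184, which covers counting error only), and 70.7 to 112 times with any 1 library left out. Against white the ratio was 36.5 (23.5 to 60.1), with 19 of the 20 white reads in white 1. It was 414 (74.0 to 16359) without white 1, and 25.0 to 43.8 with any 1 of the other libraries left out. Its color means were 10.8 ± 4.96, 0.222 ± 0.349 and 0.114 ± 0.0529 FPKM in brown, white and yellow (SD, n = 3). All 5 copies passed the filter of at least 1 FPKM in at least 3 libraries, but LOC113111009 passed it through the 3 brown libraries alone.

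**Figure D1:**
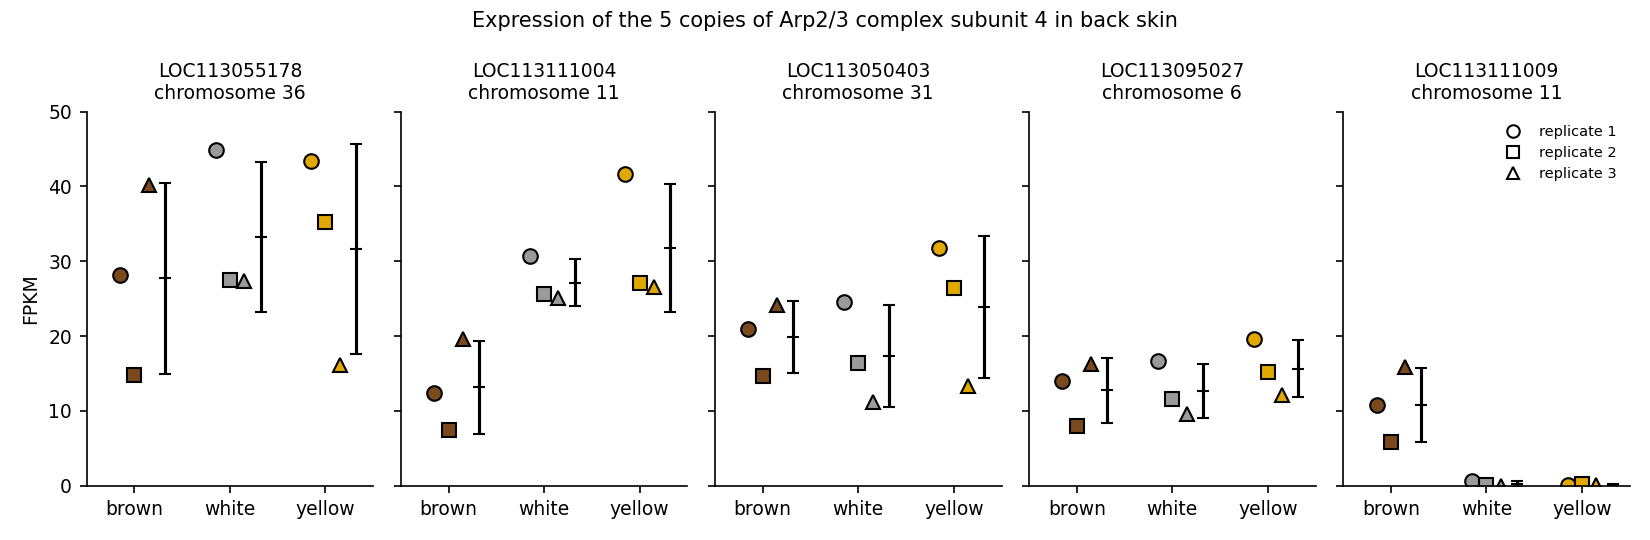
FPKM of each of the 5 copies (y axis) in each library, by skin color (x axis), with a symbol per replicate and, beside them, the mean as a short line with the SD as error bars (n = 3). LOC113111009 sits between 5.87 and 15.8 FPKM in brown and at or below 0.624 FPKM in the other 6 libraries, while LOC113111004 sits between 7.39 and 19.6 in brown and at or above 25.0 elsewhere.

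None of the other 4 copies passed the test across all genes in any comparison of colors (limma on log2(FPKM + 1), adjusted p under 0.05). LOC113111004 came nearest, with a log2 change of -1.08 ± 0.40 (SE) in brown against white (limma adjusted p = 0.788) and of -1.28 ± 0.40 in brown against yellow (limma adjusted p = 1.00). It was the only copy of the 4 with an unadjusted p under 0.05 in these comparisons, and voom on the recovered reads gave the same counts. Over all genes, limma called 10 of 27420 in brown against white (0.0365%, with 0.0219% higher and 0.0146% lower in brown), 12 in yellow against white (0.0438%, with 0.0328% higher and 0.0109% lower in yellow) and 0 in brown against yellow (0%). Voom called 0 genes in each comparison, and in brown against yellow 457 genes by limma and 301 by voom had an unadjusted p under 0.05. These comparisons share libraries, since each color enters a pair of them.

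The remaining log2 changes were smaller than their standard errors. LOC113055178 changed by -0.32 in brown against white, -0.14 in yellow against white and -0.18 in brown against yellow (SE 0.51 each). LOC113050403 had 0.23, 0.42 and -0.19 in the same order (SE 0.44), and LOC113095027 had -0.01, 0.30 and -0.31 (SE 0.38). LOC113111004 had 0.19 ± 0.40 in yellow against white. With 3 libraries a color, this does not show that the colors are alike.

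As shares of the FPKM summed over the 5 copies, LOC113111009 held 12.5%, 11.6% and 13.6% in brown 1, 2 and 3. It held 0.531%, 0.0504% and 0% of the sum in the 3 white libraries, and 0.0800%, 0.162% and 0.0936% in the 3 yellow libraries, each in order of replicate number. The share was thus 12.6 ± 1.00% in brown (SD, n = 3), although the level itself ran from 5.87 to 15.8 FPKM among those same libraries. It was the lowest of the 5 copies in all 9 libraries, brown included.

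LOC113111004 held 14.4%, 14.6% and 16.9% of the sum in brown skin, 26.2%, 31.5% and 34.3% in white skin, and 30.5%, 26.0% and 38.9% in yellow skin. Its color means were 15.3 ± 1.42%, 30.6 ± 4.12% and 31.8 ± 6.60% (SD, n = 3), and brown again lay below both other colors without overlap. The part of the sum that LOC113111009 holds in brown enters this share too, so it cannot be read apart from that copy.

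LOC113055178 held 32.7%, 29.2% and 34.6% in brown skin, 38.2%, 34.0% and 37.4% in white skin, and 31.8%, 33.9% and 23.6% in yellow skin. LOC113050403 held 24.2%, 29.0% and 20.8%, then 21.0%, 20.1% and 15.2%, then 23.3%, 25.4% and 19.6%. LOC113095027 held 16.2%, 15.7% and 14.0%, then 14.2%, 14.3% and 13.1%, then 14.4%, 14.6% and 17.7%. The shares of LOC113095027 spanned the narrowest range of the 5 copies in percentage points, and for all 3 of these copies brown overlapped both other colors. Yellow 3, the library with the lowest share of LOC113055178 and the highest share of LOC113111004, was the yellow library with 21.6% of its reads on muscle genes. The share of LOC113055178 was not the lowest of its color in the other libraries numbered 3. It was 37.4% in white 3, with 27.2% muscle reads, and 34.6% in brown 3, with 16.1%. LOC113111004 did have its highest share of each color in the library numbered 3 (16.9% in brown, 34.3% in white and 38.9% in yellow). LOC113050403 had its lowest share of each color there (20.8%, 15.2% and 19.6%). A link of these shares to muscle content was not tested.

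**Figure D2:**
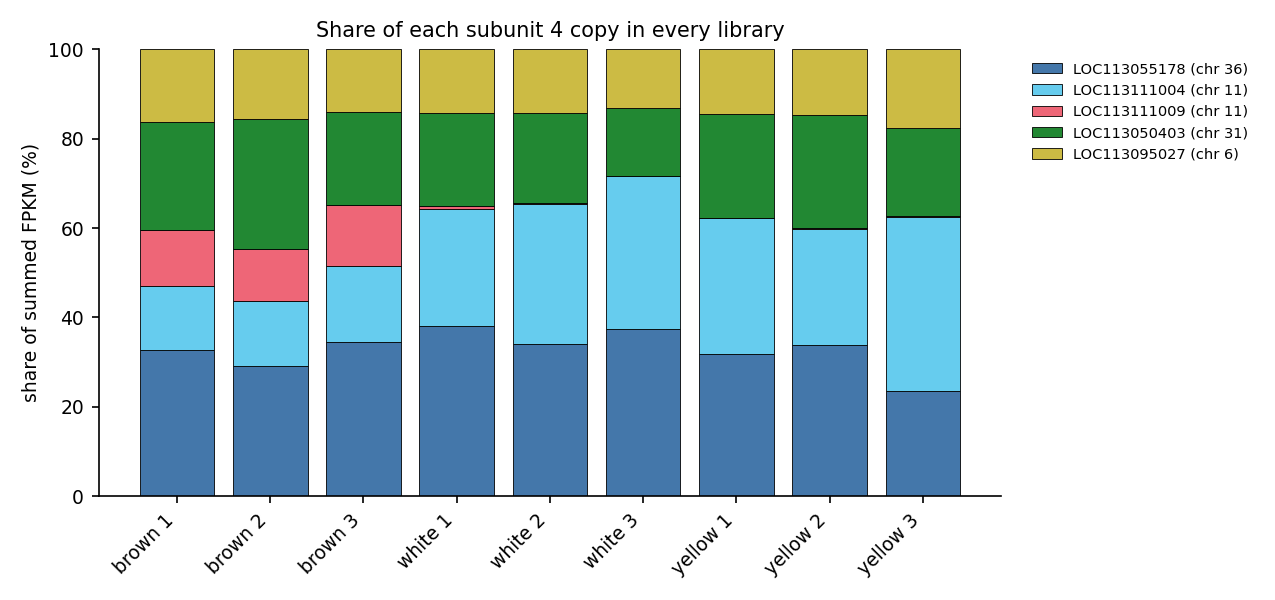
Share of each copy in the FPKM summed over the 5 copies, as stacked bars in percent, 1 bar per library. The block of LOC113111009 takes 11.6% to 13.6% in the brown libraries and at most 0.531% in the others.

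To ask whether the other copies divided their own sum differently by color, LOC113111009 was left out and the shares of the remaining 4 were tested with an exact permutation test of the F statistic over all 1680 assignments of the libraries, whose smallest possible p is 0.00357. LOC113111004 held 17.5 ± 1.81% of that sum in brown, 30.7 ± 4.05% in white and 31.8 ± 6.59% in yellow (SD, n = 3; exact permutation p = 0.0357, adjusted over the 4 copies 0.0524). In this sum its brown libraries (16.4% to 19.6%) did not overlap white (26.3% to 34.3%) or yellow (26.0% to 39.0%). How reads shared by near-identical copies were assigned is not stated, so this share is still not independent of LOC113111009.

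LOC113050403 held 28.2 ± 4.35%, 18.8 ± 3.13% and 22.8 ± 2.92% in brown, white and yellow (n = 3; exact permutation p = 0.0393, adjusted 0.0524). LOC113095027 held 17.5 ± 1.17%, 13.9 ± 0.673% and 15.6 ± 1.87% (n = 3; exact permutation p = 0.0393, adjusted 0.0524). LOC113055178 held 36.8 ± 3.56%, 36.6 ± 2.31% and 29.8 ± 5.44% (n = 3; exact permutation p = 0.129, adjusted 0.129). None of the 4 shares passed after adjustment. Without yellow 3, 3 of 4 passed (exact permutation adjusted p = 0.0381), namely LOC113111004, LOC113050403 and LOC113095027. No share passed in any other alternative. Without the libraries numbered 3 none could pass, since the smallest exact permutation p possible there is 0.0667. With the replicate number as a block, LOC113050403 had the smallest possible exact permutation p of 0.0278 (adjusted 0.111). Neither setting is therefore much of a check. Shares of 1 sum depend on each other, so these are not separate results.

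The chromosome 11 copies were then taken as a pair. Together they had 23.9 ± 11.1 FPKM in brown, 27.3 ± 3.49 in white and 31.8 ± 8.57 in yellow (SD, n = 3), with overlapping libraries. As a share of all 5 copies the pair held 27.9 ± 2.33%, 30.8 ± 3.84% and 31.9 ± 6.57%. Over the chromosome 36 copy, the pair stood at a ratio of 0.868 ± 0.0401 in brown, 0.848 ± 0.130 in white and 1.13 ± 0.464 in yellow, whereas LOC113111004 alone stood at 0.476 ± 0.0323, 0.843 ± 0.137 and 1.12 ± 0.464. Because LOC113111009 was chosen by its values, no test was made of the pair and nothing is read from its sum.

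Within the pair, LOC113111009 took 695 of 1536 reads in brown, which is 45.2% (95% Wilson interval 42.8% to 47.7%). The 3 brown libraries gave 46.4%, 44.1% and 44.4%, each inside the intervals of the other 2. In white it took 20 of 1978 reads, 1.01% (0.655% to 1.56%), with 1.98% in white 1, 0.158% in white 2 and 0 of 386 in white 3 (Wilson interval 0% to 0.985%, with the floor of 3 reads at 0.777%). In yellow it took 9 of 2382 reads, 0.378% (0.199% to 0.717%). The chromosome 11 pair was thus divided almost evenly in each brown library and held nearly whole by LOC113111004 in each of the other 6.

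Flanking genes are repeated in the same order and on the same strand beside each of the 2 chromosome 11 copies. A transcriptional adapter 3-like gene (TADA3, a part of histone acetyltransferase complexes) lies just before each copy on the opposite strand, as LOC113110999 (10443803 to 10448346) and LOC113111010 (10750373 to 10754436). A KCNMB2-like gene (a beta subunit of calcium-activated potassium channels) follows each, as LOC113111005 (10460305 to 10482893) and LOC113110585 (10767246 to 10769980). All 4 are annotated on the minus strand. These genes were looked at after the values of the copies were known.

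**Figure D3:**
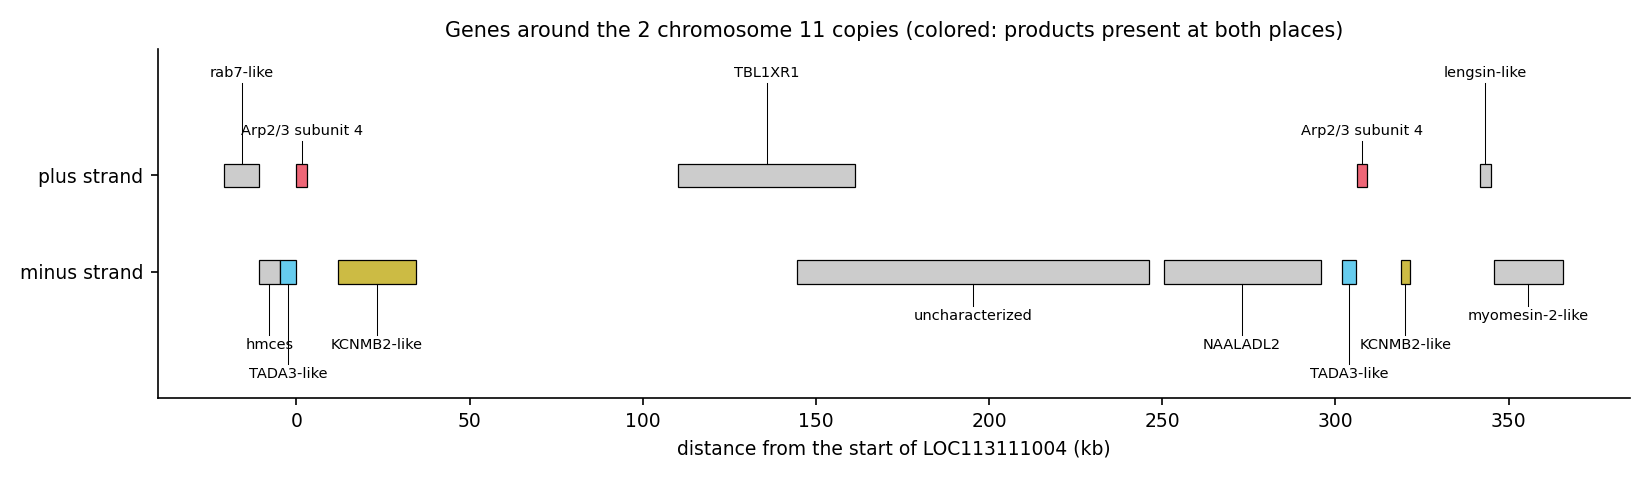
Map of the annotated genes around the 2 chromosome 11 copies, to scale, with the distance in kb from the start of LOC113111004 on the x axis and the strands as rows. Arp2/3 subunit 4, TADA3-like and KCNMB2-like genes are colored and occur in the same order at both places, 303 kb apart.

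The second TADA3-like gene had 26, 2 and 18 reads in brown 1, 2 and 3, then 0, 2 and 2 in white and 3, 1 and 0 in yellow libraries. The first had 99, 15 and 58, then 125, 93 and 82, then 90, 62 and 36. The second therefore took 21.1% of the reads of its pair in brown (16.2% to 27.0%), 1.32% in white and 2.08% in yellow. Its 2 reads in brown 2 are no more than in white 2 or 3, although of a pair total of only 17 reads.

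The second KCNMB2-like gene had 10, 24 and 6 reads in brown, none in white, and 0, 0 and 1 in yellow libraries. The first had 31, 44 and 22, then 35, 32 and 28, then 49, 78 and 22. The second took 29.2% of the pair's reads in brown (22.2% to 37.3%), 0 of 95 in white (0% to 3.89%, with the floor of 3 reads at 3.16%) and 0.667% in yellow. All 3 second copies thus had most of their reads in brown skin. Both flanking second copies stayed under the filter on low values, and these shares are counts over pooled libraries with no test between colors.

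**Figure D4:**
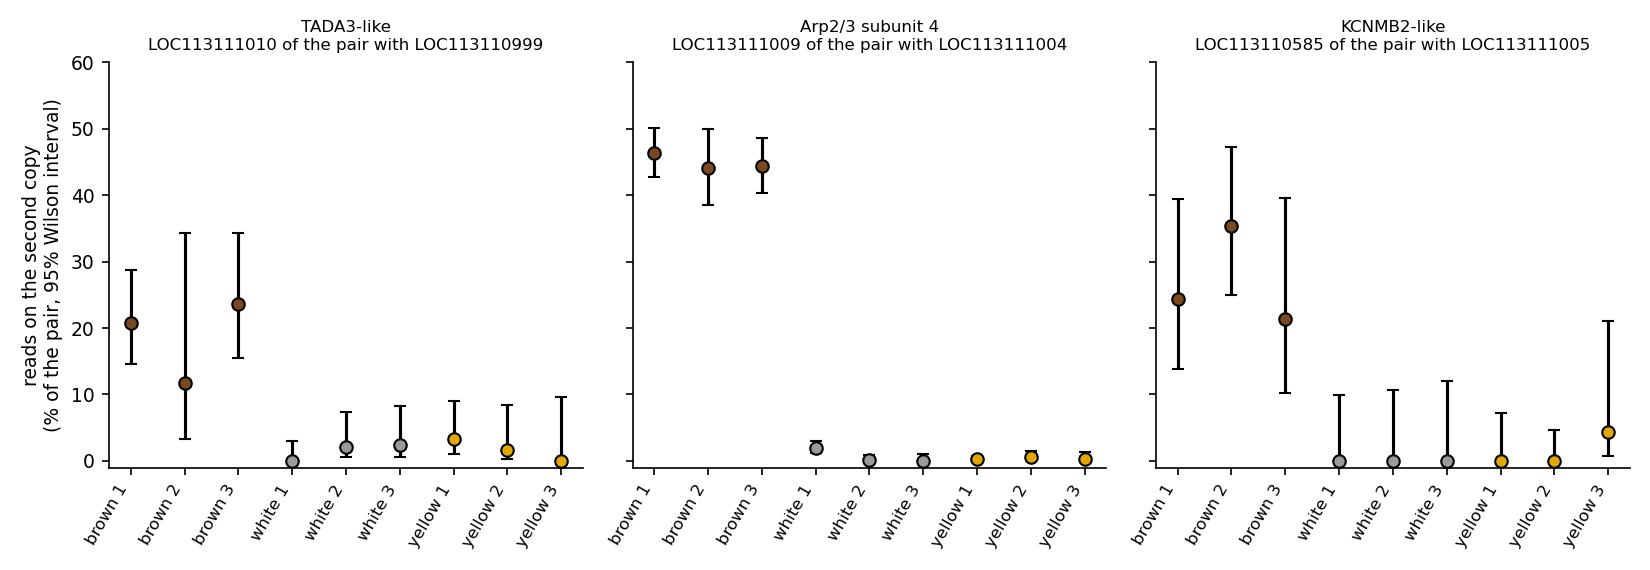
Percent of the reads of each chromosome 11 pair that fell on the second copy, per library, for subunit 4, TADA3-like and KCNMB2-like, with 95% Wilson intervals as error bars. For subunit 4 the brown libraries lie at 44.1% to 46.4% and the others at or below 1.98%.

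Some genes near the chromosome 11 copies separated brown from the rest. Of 15 tested genes within 0.5 Mb of LOC113111009, itself included, 1 was higher in brown without overlap and 2 were lower. Of 26 tested genes within 1 Mb, 2 were higher in brown without overlap (0.686% of all genes tested were). Another 2 were lower (0.671% of all genes tested were), and the 2 subunit 4 copies are 1 of each. Both shares are larger than those over all genes, with a subunit 4 copy in each. The window was placed around LOC113111009, which was chosen by its values. The larger shares are therefore not read as a result for either count. The other higher gene was LOC113110989, putative homeodomain transcription factor 1 (9953308 to 9964269), with 3.09, 1.90 and 1.45 FPKM in brown and 0.0368 to 0.230 elsewhere. Like LOC113111009, it passed the filter on low values through the 3 brown libraries alone, so that the count of higher genes here is a description. The other lower gene was LOC113111008, TBL1XR1, a subunit of corepressor complexes that lies between the 2 copies (10558555 to 10609815), with 5.97, 6.53 and 6.38 FPKM in brown and 6.91 to 10.7 elsewhere (limma adjusted p = 0.790 against white).

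Across the 9 libraries, LOC113110989 was the gene whose log2(FPKM + 1) followed LOC113111009 most closely, with a Pearson r of 0.923 among 27419 genes. The next were a polymeric immunoglobulin receptor-like gene on chromosome 2 (LOC113112909, r = 0.903), an unnamed gene of the authors' assembly (r = 0.898), a phosphatidylinositol 4-phosphate 5-kinase type-1 beta-like gene on chromosome 8 (LOC113106973, r = 0.895) and a dnaJ subfamily A member 4-like gene on chromosome 50 (LOC113067005, r = 0.894). Any gene that is high in the brown libraries alone would rank high by this measure.

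LOC113055178 had other neighbors in level. The genes most like it were both tested copies of ARP3, LOC113109201 (r = 0.985) and LOC113052999 (r = 0.974), then a cytoplasmic actin 1 gene (LOC113078077, r = 0.974), a myelin basic protein-like gene (LOC113116490, r = 0.972) and the GTP-binding protein rag A (LOC113113550, r = 0.972). Among the copies themselves, the chromosome 31 and chromosome 6 copies were the most alike (r = 0.887) and the chromosome 11 copies the least (r = -0.715). These are descriptions over 9 libraries that share depth, scaling and tissue mixture.

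How often 1 gene is present in 1 color only was counted over the whole table, with limits set after seeing the values. LOC113111009 was the only gene with at least 5 FPKM in all 3 brown libraries and under 1 in the other 6, and no gene met this for white or for yellow. In reverse, 4 genes were under 1 FPKM in all white libraries and at least 5 in all others. For brown and for yellow, 0 genes met this reverse pattern. Of 223 pairs of genes with the same product name within 500 kb of each other and a summed level of at least 10 FPKM in every library, the chromosome 11 pair was the only pair with a member at 30% or more of the sum in all libraries of 1 color and under 5% in all others. The counts that LOC113111009 meets describe it by the values that chose it.

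The sum over all 5 copies was 86.1, 50.6 and 116 FPKM in brown skin, 117, 81.1 and 73.1 in white skin, and 137, 104 and 68.1 in yellow skin. The colors overlapped, with brown 2 the lowest library and yellow 1 the highest. The order of libraries depends on the scaling, because the denominators implied by the FPKM ran from 0.675 to 1.39 times the counted reads and were lowest in the libraries numbered 3. With the counted reads as the FPKM denominator, the sum was 110, 56.9 and 78.3 in brown, then 163, 87.2 and 50.3 in white, then 170, 133 and 51.9 in yellow skin, so that white 3 became the lowest. LOC113111004 then had 8.30 to 15.8 in brown libraries and 17.2 to 51.7 in the others, still without overlap. Shares of the copies do not depend on the denominator. In the fit with sums, subunit 4 had log2 changes of -0.15 in brown against white, 0.16 in yellow against white and -0.31 in brown against yellow (SE 0.47 each), given as a description because the sum holds LOC113111009.

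The other 6 subunits have 32 annotated copies, of which 28 were tested, and none passed in any comparison (limma adjusted p under 0.05). By limma, 1 copy in brown against white and none in the other comparisons had an unadjusted p under 0.05, beside 5.72%, 3.50% and 1.67% of all genes in brown against white, yellow against white and brown against yellow. Voom gave the same counts for these copies. The median log2 change of these 28 was 0.06 in brown against white, 0.10 in yellow against white and -0.01 in brown against yellow, beside -0.02, -0.03 and 0.01 over all genes. Among the summed subunits, none passed in any comparison.

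Per library, the median ratio of a subunit's summed FPKM to that of subunit 4 was 0.796 for ARP2, 1.92 for ARP3, 2.05 for ARPC1, 1.16 for ARPC2, 1.08 for ARPC3 and 1.30 for ARPC5. ARPC2, the partner of subunit 4 in the core, kept between 0.846 and 1.40 times its level. ARPC5 ranged most widely, from 0.961 to 3.44 times. Each subunit had a leading copy, from LOC113057272 for ARP2 (20.6 FPKM over all libraries) to LOC113109201 for ARP3 (112). The leading copy of ARPC1 was LOC113042665 (40.4), of ARPC2 LOC113052961 (59.6), of ARPC3 LOC113038700 (107) and of ARPC5 LOC113062961 (42.0). LOC113055178, which leads subunit 4 at 30.8 FPKM, held 23.6% to 38.2% of its subunit's sum. The leading copies of ARP2 (19.1% to 36.5%), ARPC1 (12.1% to 27.6%) and ARPC5 (25.0% to 46.5%) also held minor parts of their sums. Those of ARP3 (62.2% to 69.5%), ARPC2 (52.54% to 67.35%) and ARPC3 (83.8% to 99.3%) held the larger part.

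**Figure D5:**
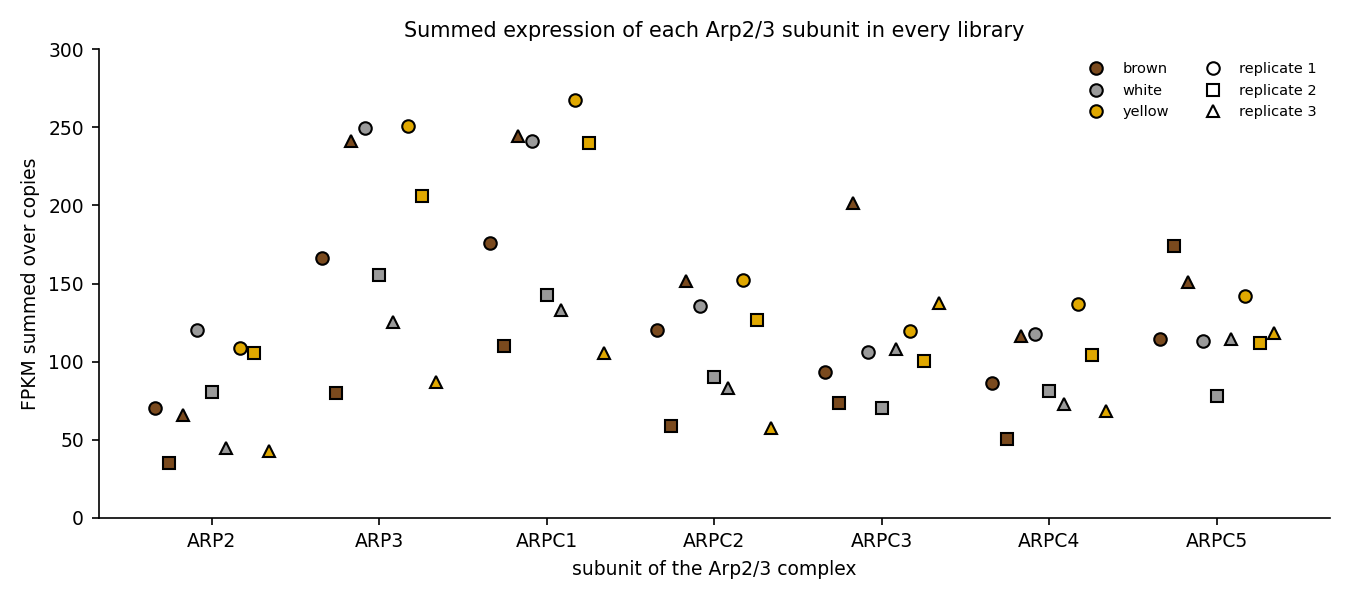
Summed FPKM over the copies of each Arp2/3 subunit (x axis) in each library, on a linear FPKM axis, colored by skin color with a symbol per replicate. Subunit 4 lies between 50.6 and 137 FPKM, and the 3 colors overlap for it.

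Genes that switch the complex on or regulate it were read from a list of 106 (WASP, WAVE and WASH proteins, their binding partners, small GTPases and coronins), of which 82 were tested. None passed in any comparison (limma adjusted p under 0.05), with 4, 3 and 2 at an unadjusted p under 0.05 in brown against white, yellow against white and brown against yellow, and 3, 2 and 2 by voom, which also called 0. Over all genes these shares were 5.72%, 3.50% and 1.67% by limma in the same order. Of 82 genes, 4 is a smaller share than 5.72%, while 3 and 2 are slightly larger shares than 3.50% and 1.67%. Counts this small are not read as a result. The 2 of smallest p over the comparisons were LOC113081662, a copy of the WASP-binding protein WIPF2, and LOC113079196, a WASH complex subunit 1 gene. LOC113081662 had 0.0725 ± 0.0970 FPKM in yellow and 5.45 ± 2.49 in white (SD, n = 3; limma adjusted p = 1.00), and LOC113079196 had 0.598 ± 0.660 in brown and 3.28 ± 1.76 in yellow (SD, n = 3; limma adjusted p = 1.00).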

How the data were processed

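The authors deposited FPKM values per gene and library, beside the product name, position and length of the gene. The submitters' processing notes name HISAT2 and StringTie without versions. The genome build, strand setting and treatment of shared reads were not found in the labels or file headers. Of 74297 gene IDs, 72068 matched the RefSeq table. FPKM times length is a whole multiple of a library-specific step for 100% of values (tolerance 0.01 reads), and these multiples were used as recovered reads. Replicate libraries all differed by more than counting noise. Intervals and floors (3 reads) cover counting error only.

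Genes were tested on log2(FPKM + 1) with limma-trend (limma 3.58.1, R 4.3.3). The fit held 9 libraries, skin color and the 27420 genes that reached 1 FPKM in at least 3 libraries. Tests were two-sided, with Benjamini-Hochberg adjustment over all genes and a threshold of 0.05. The 1 added before the logarithm understates the changes of genes with low values. Folds came from reads pooled by color. Shares of the 4 other copies were tested by exact permutation (Python 3.11.15). The gene fit was also run on simulated counts with large changes and no differences in tissue mixture, so that run is no check on these libraries.

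Alternatives were pseudocounts of 0.1 and 0.5, omitting the filter or raising it to 5 FPKM, TPM computed from the FPKM, median-of-ratios factors, the replicate number as a block, voom on recovered reads, each library left out, and the libraries numbered 3 left out. The shares were also taken in recovered reads. Scaling per counted read was added after seeing the data. Named genes were all 5 copies, the leading copy of each other subunit, regulators that passed or else the 2 of smallest p, up to 3 neighbors on each side of a copy, and the 5 genes most like LOC113111009 and LOC113055178. LOC113110989 and LOC113111008 were also named by the regional count. The members and lists were chosen with earlier results of these data known.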

Additional observations from a re-analysis of the deposited data

How the results depend on the processing

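The count of genes called in brown against white, 10 (6 higher, 4 lower), was 2 with no filter, 5 with the filter at 5 FPKM, 5 with TPM (1 higher, 4 lower), 3 with the replicate block, 0 without the libraries numbered 3, 0 by voom, and 0 to 14 with 1 library left out. In yellow against white the count of 12 was 5, 5, 9, 6, 6 and 0 in the same order, and 2 to 12 with 1 library left out. The 0 of brown against yellow became 1 at a pseudocount of 0.1. The cause was not tested. With TPM, which tests 32341 genes, the median log2 change of all genes was -0.20 in brown against white and -0.22 in brown against yellow, beside -0.02 and 0.01. Scaling per counted read, added after seeing the data, called 7 (3 higher, 4 lower), 12 and 2 genes in brown against white, yellow against white and brown against yellow. Same-numbered libraries did not deviate together in every pair (r from -0.30 to 0.77). The labels do not say whether a replicate number marks a shared litter, day or batch, and these correlations cannot settle it. None of the 4 other copies and no summed subunit passed under any alternative of the gene fit. The call in brown against white that chose LOC113111009 is no evidence here, and it stayed under the threshold in 4 of the 15 alternatives that tested it (limma adjusted p 0.0243 to 0.838).

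The share test of the 4 other copies called 3 without yellow 3 and 0 in every other alternative. Without the libraries numbered 3 it could not have called any. LOC113111004 stayed lower in brown than in white (-1.46 to -0.75, log2) and yellow (-1.71 to -0.95) in all alternatives. Without the libraries numbered 3, LOC113055178 turned to 0.15 in yellow against white and LOC113050403 to -0.19 in brown against white. Some log2 changes that had not passed changed sign with 1 library left out. LOC113055178 ranged from -0.64 to 0.055 in brown against white, -0.42 to 0.27 in yellow against white and -0.59 to 0.20 in brown against yellow. LOC113111004 ranged from -0.011 to 0.30 in yellow against white, LOC113050403 from -0.039 to 0.50 in brown against white and -0.55 to 0.046 in brown against yellow, and LOC113095027 from -0.20 to 0.28 in brown against white. The subunit 4 sum ranged from -0.42 to 0.17, -0.072 to 0.42 and -0.58 to 0.014 in these 3 comparisons. The share of LOC113111009 in white was 0.0252% without white 1 and 0.194% with it. In recovered reads the mean share of LOC113055178 was 27.8% in brown, 31.9% in white and 25.6% in yellow. By FPKM these were 32.1%, 36.5% and 29.8%. For LOC113095027 they were 16.5%, 15.1% and 16.8% in reads and 15.3%, 13.9% and 15.6% by FPKM.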
